A study of Mus musculus with 6 samples.

Results

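The hematopoietic stem cell (HSC) transcription factor core described here is a set of 10 genes, Hlf, Meis1, Mecom, Prdm16, Gata2, Tal1, Lmo2, Runx1, Erg and Fli1. They were chosen by name, with earlier results of these data known, as factors known for their part in HSC. All 10 were found by gene symbol among the 24062 genes of the deposited table, and all 10 passed the filter on low values that left 13732 genes for testing. Blood stem cells were compared between the CDKO group, of genotype Nr4a1 fl/fl; Nr4a3-/-; Rosa26-ERt2, and a control group, Nr4a1 fl/fl; Nr4a3-/-, with 3 RNA libraries per group. All animals thus lacked Nr4a3 and had floxed Nr4a1, and every mouse was injected with tamoxifen (120 mg per kg a day for 4 days) before cells were sorted on day 5. By background, the Rosa26-ERt2 label stands for a recombinase that is switched on by tamoxifen in any cell type with an active Rosa26 locus. A library came from 3 to 5 pooled mice, whose age, sex and sort markers were not given. Recombinase and deletion came together in the CDKO pools, and their effects cannot be told apart.

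These factors bind DNA, or bridge proteins that do, and hold a stem cell in a state from which all blood lineages can still form. GATA2, TAL1, LMO2, RUNX1, ERG and FLI1 are known to meet on the same enhancers, many of them in one another's genes, so the set is often described as a network that keeps itself on. HLF, MECOM, PRDM16 and MEIS1 are known for keeping HSC quiescent and able to self-renew, and loss of any of them in mice depletes or weakens the stem cell pool.

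The libraries held 32863805 to 42772261 counted reads, and levels are given in counts-per-million (CPM), the count of a gene scaled to the counted reads of the library. With no read at all, a gene could still be present at up to 0.0701 to 0.0913 CPM, which is what 3 counts come to in the deepest and the shallowest library (counting error only). Nr4a1, the deleted nuclear receptor gene, had 8.52, 9.76 and 9.12 CPM in CDKO pools, against 15.2, 13.4 and 12.9 CPM in control pools. The CDKO values all lay below the control values (limma adjusted p = 0.00204), and counts over the whole gene cannot show how much of the floxed part was removed. Nr4a3 had no read in any library, and Nr4a2, at 2.43 ± 1.22 CPM in CDKO pools and 3.86 ± 0.282 CPM in control pools (SD, n = 3 each), did not pass (limma adjusted p = 0.0547). Whether it passed depended on the setting. It passed without CDKO replicate 3, with the replicate block, with the GC and length correction, with both of these, and where 5 CPM was added in place of 1 (limma adjusted p = 0.0141, 0.0314, 0.0481, 0.0363 and 0.0396), and its log2 difference of -0.57 was -0.25 without CDKO replicate 1 (limma adjusted p = 0.215). Genes of the HSC surface such as Kit, Procr and Slamf1 were read in all pools. The T cell genes Cd3e, Cd3g and Cd8a, the B cell genes Ms4a1 and Pax5, and Sox17 of endothelium had no read in any. Other B cell and endothelial markers were read, while Cd3d, the remaining T cell gene searched, had no read in control pools. In control pools T and NK cell markers summed to 57.2 to 59.01 CPM, all of it from Nkg7, Ncr1 and Klrb1c. B cell markers summed there to 46.6 to 55.96 CPM and endothelial markers to 40.2 to 42.4 CPM. Genes without a read do not by themselves show that these cells were absent.

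Of the 10 factors, 6 differed between the groups. Tal1, Hlf, Mecom and Prdm16 fell in CDKO pools, Fli1 and Runx1 rose, and Meis1, Gata2, Lmo2 and Erg did not pass the test. A gene passed at a Benjamini-Hochberg adjusted p under 0.05, two-sided, in limma on log2(CPM + 1) over all 13732 genes. The 6 of 10 stand beside 66.2% of all tested genes that passed, the 4 that fell beside 35.2% that were lower, and the 2 that rose beside 31.1% that were higher, so that the share of factors that changed was near that of genes at large. The 3 CDKO values lay wholly above or below the 3 control values for 8 of the 10 genes, and for 70.7% of all tested genes. The changes were small. The median log2 difference was -0.06 over the 10 factors and -0.02 over all tested genes, and the median size of the difference, whatever its sign, was 0.18 over the factors and 0.34 over all tested genes. Added together, the 10 genes came to 3749, 3685 and 3640.2 CPM in CDKO pools, against 3786, 3942 and 3881 CPM in control pools. In bulk RNA, fewer cells of a type and less RNA per cell cannot be told apart.

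**Figure D1:**
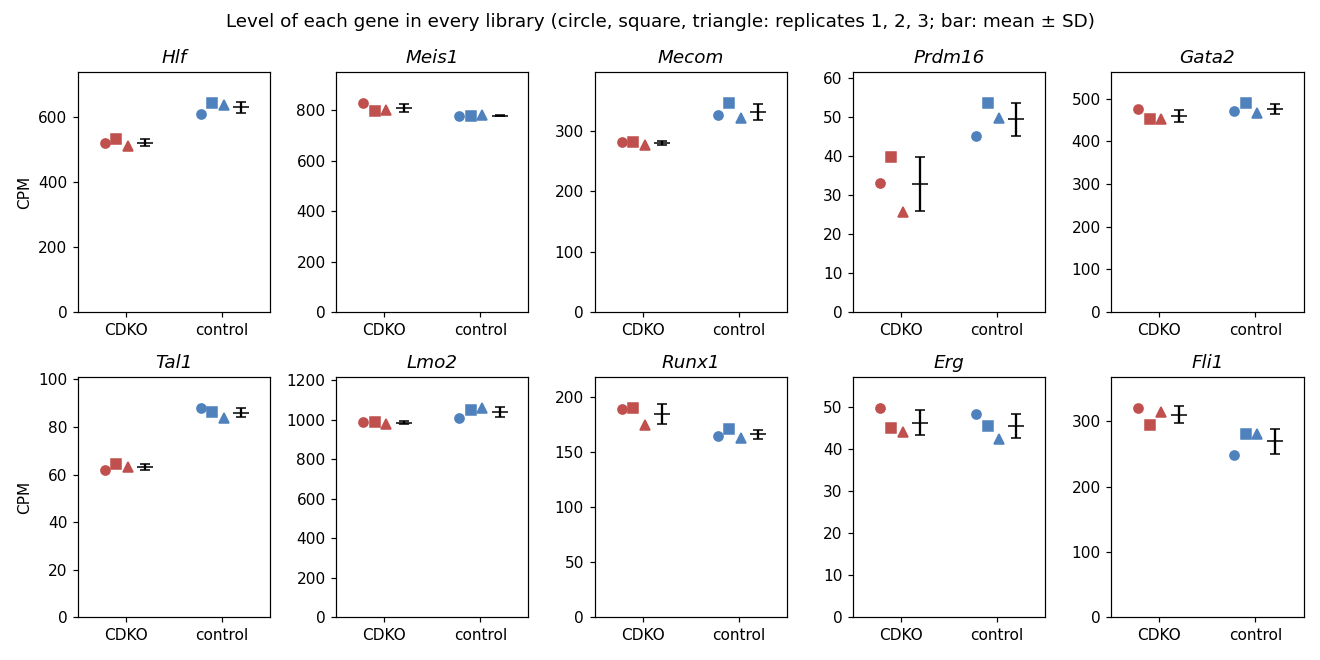
Level of each of the 10 factors in CPM (counts-per-million, axis from 0) in every library, CDKO pools in red and control pools in blue, with the mean ± SD of 3 pools beside the points. Tal1, Hlf, Mecom and Prdm16 are lower in all 3 CDKO pools, Fli1 and Runx1 are higher in all 3, and the values of Gata2 and Erg overlap between the groups.

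The promoters of the 4 genes that fell are shown first, with that of Runx1, which rose. The enhancers on which factors of the set are known to meet were not searched. The windows are RefSeq promoters of build GRCm38.p6, from 250 bases before to 50 bases after a transcription start, printed 5′ to 3′ on the gene's strand. For Mecom, Tal1 and Runx1, which have more than 1 listed start, the start that lies farthest upstream is shown. Capitals mark matches on either strand to AAAGGTCA (the site that an NR4A protein binds alone), GATAA (GATA factors), CGGAA (ETS factors), CANNTG (the E-box of TAL1 and its relatives), TGTGGT (RUNX), TGACAG (MEIS) or TTACNNAA (HLF and its relatives).
Hlf (chr11:90390868-90391167, minus strand): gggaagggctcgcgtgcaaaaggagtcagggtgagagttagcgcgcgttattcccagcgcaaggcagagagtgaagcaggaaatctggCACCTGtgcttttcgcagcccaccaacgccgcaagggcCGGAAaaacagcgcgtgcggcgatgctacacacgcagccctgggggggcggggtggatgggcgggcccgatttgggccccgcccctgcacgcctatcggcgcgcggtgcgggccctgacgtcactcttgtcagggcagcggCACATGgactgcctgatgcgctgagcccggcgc
Mecom (chr3:30509710-30510009, minus strand): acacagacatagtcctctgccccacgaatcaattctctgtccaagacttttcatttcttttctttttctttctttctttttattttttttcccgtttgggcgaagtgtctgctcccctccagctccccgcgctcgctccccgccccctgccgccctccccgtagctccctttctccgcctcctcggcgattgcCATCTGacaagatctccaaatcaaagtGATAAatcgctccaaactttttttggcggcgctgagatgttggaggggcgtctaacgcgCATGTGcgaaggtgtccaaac
Prdm16 (chr4:154636824-154637123, minus strand): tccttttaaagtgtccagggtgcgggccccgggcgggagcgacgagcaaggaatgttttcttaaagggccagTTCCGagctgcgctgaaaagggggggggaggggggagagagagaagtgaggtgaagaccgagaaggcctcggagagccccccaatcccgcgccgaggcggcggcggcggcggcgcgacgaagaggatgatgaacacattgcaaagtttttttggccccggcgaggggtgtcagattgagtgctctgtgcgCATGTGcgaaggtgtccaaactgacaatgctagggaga
Tal1 (chr4:115056176-115056475, plus strand): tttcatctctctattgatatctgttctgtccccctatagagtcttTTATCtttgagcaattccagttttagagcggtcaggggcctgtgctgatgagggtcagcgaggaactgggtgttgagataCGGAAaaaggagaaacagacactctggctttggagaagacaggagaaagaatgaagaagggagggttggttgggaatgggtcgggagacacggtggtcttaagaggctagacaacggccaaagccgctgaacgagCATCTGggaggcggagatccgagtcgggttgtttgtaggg
Runx1 (chr16:92826025-92826324, minus strand): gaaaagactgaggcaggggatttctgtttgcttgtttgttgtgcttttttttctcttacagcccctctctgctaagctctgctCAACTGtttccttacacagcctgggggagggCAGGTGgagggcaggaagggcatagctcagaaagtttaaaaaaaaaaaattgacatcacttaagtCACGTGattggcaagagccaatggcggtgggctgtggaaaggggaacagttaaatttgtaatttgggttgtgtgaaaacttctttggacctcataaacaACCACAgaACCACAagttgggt
Windows were listed for 8 of the 10 genes, 14 windows in all, and none was listed for Lmo2 and Fli1. The letters AAAGGTCA were in 0 of the 14 windows and in 1.51% of all 32851 windows of that length. CGGAA was in 8 of the 14 windows and 29.9% of all, CANNTG in 8 of 14 and 72.3%, GATAA in 4 of 14 and 25.4%, TGTGGT in 2 of 14 and 16.8%, TGACAG in 2 of 14 and 19.2%, and TTACNNAA in 2 of 14 and 9.18%. No match overlapped another in these 14 windows. A match is a run of letters, not evidence of binding. The Mecom and Prdm16 windows, of genes that code for related proteins, also had in common an unbroken run of 24 bases, the longest among 84 pairs of windows of different genes.
Shared run: GCGCATGTGCGAAGGTGTCCAAAC
It covered bases 27 to 50 after the Mecom start (chromosome 3) and bases 10 to 33 after the Prdm16 start (chromosome 4). Base 50 is the last of the Mecom window, so whether the run goes on beyond it was not seen. The next longest run in any pair was 14 bases.

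Hlf codes for a leucine zipper factor of the PAR family that is largely limited to HSC within bone marrow (GENCODE M21 on GRCm38, chr11:90336536-90390895). It had 520.4, 533 and 509.9 CPM in CDKO pools, against 610.1, 642 and 637 CPM in control pools. Every CDKO pool lay below every control pool, and no pool lay far from the others of its group. The means were 521 ± 11.7 CPM in CDKO pools and 630 ± 17.1 CPM in control pools (SD, n = 3 each), a fold of 0.828 (log2 difference -0.27, SE 0.04, limma adjusted p = 9.99e-05). Nfil3, a leucine zipper repressor that binds sites like those of HLF, fell as well, to 2.62 ± 0.368 CPM in CDKO pools, against 5.57 ± 0.840 CPM in control pools (limma adjusted p = 0.000523). Of the closest relatives of Hlf, Tef fell (39.1 ± 5.89 CPM in CDKO pools and 75.0 ± 3.67 CPM in control pools, limma adjusted p = 9.41e-06), and Dbp stood at 13.0 CPM in CDKO pools and 11.7 CPM in control pools without passing.

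Meis1, a homeobox factor that binds DNA together with other homeobox proteins (chr11:18879817-19018985), had 828, 796 and 802 CPM in CDKO pools, against 777, 777 and 781 CPM in control pools. The groups did not overlap, but the difference of 3.87% was not called (log2 difference 0.05, 95% confidence interval -0.03 to 0.14, limma adjusted p = 0.214). GENCODE genes on the same strand share 9.77% of its exon bases and genes on the opposite strand 8.51%, and whether the authors' counting used strand is not given in the sources used here.

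Mecom and Prdm16 code for zinc finger proteins with a histone methyltransferase-like domain and are the most closely related pair in the PRDM family. Mecom (chr3:29951296-30548008) had 281 CPM in CDKO replicate 1, 282 in replicate 2 and 276 in replicate 3, against 326, 346 and 321 CPM in control pools. All CDKO pools lay below all control pools, and the CDKO pools were the more alike. The fold was 0.845 (log2 difference -0.24, SE 0.04, limma adjusted p = 0.000373). Prdm16 (chr4:154316125-154636873) had 33.1, 39.8 and 25.8 CPM in CDKO pools, against 45.1, 53.6 and 49.8 CPM in control pools. It was again lower in every CDKO pool, with CDKO replicate 3 the lowest. Its log2 difference of -0.59 (SE 0.13, fold 0.664, limma adjusted p = 0.00186) was the largest in the set in either direction, and it ran from -0.74 to -0.43 when 1 library was left out at a time. The spread between CDKO pools was a coefficient of variation of 21.3% for Prdm16, where read counting alone gives 2.83%, and 1.14% for Mecom, where counting gives 0.962%. Genes on the opposite strand share 1.17% of the Prdm16 exon bases and 0.652% of those of Mecom.

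GATA2, TAL1 and LMO2 are known to sit in 1 complex, in which TAL1 pairs with an E protein and touches the E-box, GATA2 touches the GATA site, and LMO2 with LDB1 bridges them. Tal1 (chr4:115056426-115071755) had 62.01, 64.6 and 63.01 CPM in CDKO pools, against 87.8, 86.4 and 83.9 CPM in control pools. The gap between the groups was wider than the spread within either of them. The fold was 0.734, a log2 difference of -0.44 (SE 0.05) with the smallest p of the set (limma adjusted p = 2.72e-05). Gata2 (chr6:88193891-88207032) had 475, 452 and 451 CPM in CDKO pools, against 470.02, 489 and 466 CPM in control pools. CDKO replicate 1 lay within the control range, and the log2 difference was -0.05 (95% confidence interval -0.14 to 0.04, limma adjusted p = 0.314). It was 0.10 once GC content and length had been corrected for (limma adjusted p = 0.105), and -0.10 after quantile normalization, where it was called (limma adjusted p = 0.0313). Lmo2 (chr2:103957986-103981878) had 991, 988 and 979.6 CPM in CDKO pools, against 1009, 1051 and 1058 CPM in control pools. The groups did not overlap, yet the difference of -5.10% was not called (log2 difference -0.08, 95% confidence interval -0.16 to 0.01, limma adjusted p = 0.103), except after quantile normalization (log2 difference -0.17, limma adjusted p = 0.000516).

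Runx1, which codes for the DNA-binding subunit of core binding factor (chr16:92601466-92826149), had 189, 189.6 and 174 CPM in CDKO pools, against 164, 171 and 163 CPM in control pools. It was higher in 3 of 3 CDKO pools, with replicate 3 the closest to the control pools. The fold was 1.11 (log2 difference 0.15, SE 0.05, limma adjusted p = 0.0174). The call was lost without control replicate 3, CDKO replicate 1 or CDKO replicate 2 (limma adjusted p = 0.0621, 0.0563 and 0.0642). Cbfb, which codes for the other subunit, stood at 250.1 ± 10.98 CPM in CDKO pools and 241 ± 9.49 CPM in control pools and was not called (limma adjusted p = 0.346). The 2 relatives of Runx1 differed more than it did, and in opposite directions. Runx2, best known from bone formation, fell to 68.8 ± 1.99 CPM in CDKO pools, against 147 ± 9.20 CPM in control pools (limma adjusted p = 1.35e-07), and Runx3 rose to 88.4 ± 1.33 CPM in CDKO pools, against 55.3 ± 2.68 CPM in control pools (limma adjusted p = 2.61e-06).

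Erg and Fli1 code for closely related ETS factors that bind the same core letters. Fli1 (chr9:32422204-32542861) had 319, 295 and 314 CPM in CDKO pools, against 248, 280.3 and 279.8 CPM in control pools. It was higher in 3 of 3 CDKO pools, though CDKO replicate 2 stood close to the upper 2 control pools and control replicate 1 lay apart below. The rise was 14.99% (log2 difference 0.20, SE 0.06, limma adjusted p = 0.00683), the largest rise in the set. Erg (chr16:95359169-95586593) had 49.6, 44.9 and 44.02 CPM in CDKO pools, against 48.1, 45.3 and 42.4 CPM in control pools. The groups overlapped over most of their range, and the log2 difference was 0.03 (95% confidence interval -0.14 to 0.19, limma adjusted p = 0.768), turning to -0.018 without control replicate 3 and -0.024 without CDKO replicate 1.

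**Figure D2:**
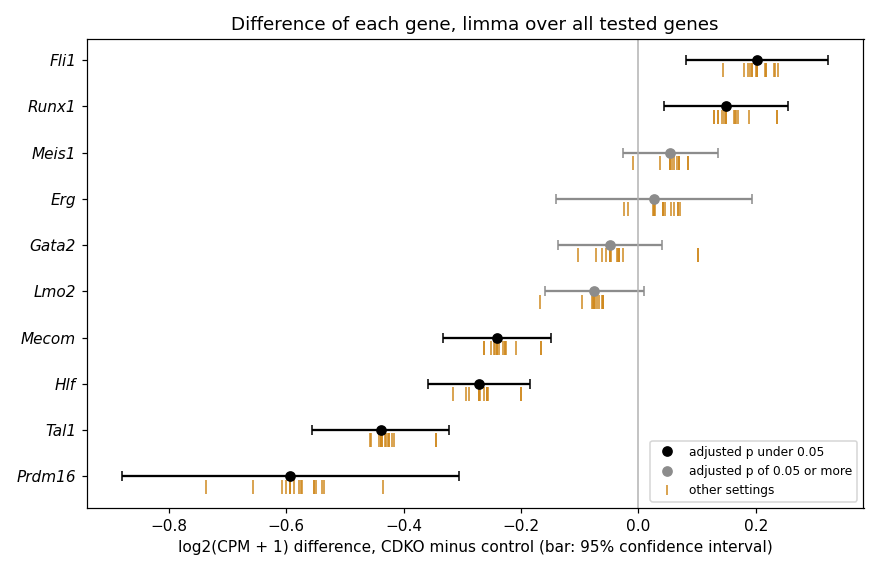
Difference in log2(CPM + 1) between CDKO and control pools for each factor, with its 95% confidence interval from limma and, as orange ticks under it, the values at other settings and with 1 library left out. The ticks of Prdm16, Tal1, Hlf and Mecom stay below 0 and those of Runx1 and Fli1 above it, while those of Meis1, Erg and Gata2 fall on both sides.

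The authors' deposited table, a DESeq2 comparison of the same libraries, passes 8 of the 10 genes at an adjusted p under 0.05, and 64.9% of the genes to which it gives an adjusted p. In the authors' deposited table Meis1 and Lmo2 pass as well, with log2 folds of control over CDKO of -0.07 (adjusted p = 0.0314) and 0.06 (adjusted p = 0.0290). Gata2 and Erg are the genes that do not pass in the authors' deposited table (adjusted p = 0.5003 and 0.701).

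Per length, Lmo2 was by far the most abundant of the 10. Divided by the length of all annotated exons of the gene, Lmo2 stood at 455 ± 2.75 CPM per kilobase in CDKO pools and 479.8 ± 12.3 CPM per kilobase in control pools. Hlf, Gata2, Fli1 and Meis1 formed a group between 76.8 and 88.8 CPM per kilobase in CDKO pools and between 73.9 and 94.2 in control pools. Mecom followed at 22.5 CPM per kilobase in CDKO pools and 26.6 in control pools, then Tal1, Runx1 and Erg between 13.3 and 15.3 in CDKO pools and between 13.1 and 19.7 in control pools, and Prdm16 was lowest at 3.53 in CDKO pools and 5.31 in control pools. In control pools the order was Lmo2, Hlf, Gata2, Fli1, Meis1, Mecom, Tal1, Runx1, Erg and Prdm16, and only Fli1 with Meis1 and Runx1 with Erg had ranges that overlapped among neighbours. In CDKO pools Hlf stood behind Fli1 and Gata2, Tal1 stood behind Runx1, and neighbours overlapped for Fli1 with Gata2, Hlf with Meis1, Runx1 with Tal1 and Tal1 with Erg. With the longest transcript as the length, Lmo2, Mecom, Erg and Prdm16 kept their ranks in both groups while the order among Hlf, Gata2, Fli1 and Meis1 changed in both groups, and Runx1 came before Tal1 in control pools too.

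**Figure D3:**
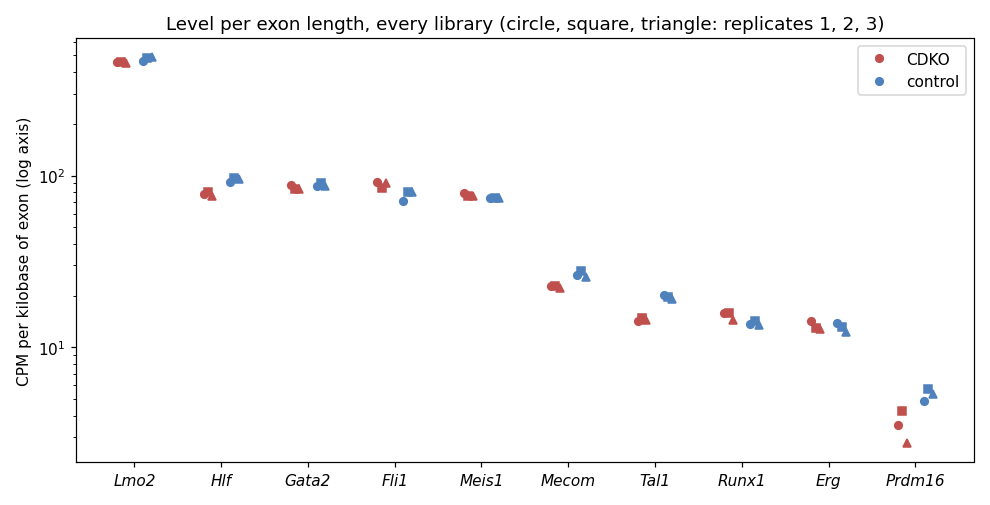
Level of each factor per kilobase of annotated exon in every library (log axis), CDKO pools in red and control pools in blue. Lmo2 lies far above the others in all pools, Prdm16 lies below them, and Hlf, Fli1, Tal1 and Runx1 stand at different ranks in the 2 groups.

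Ratios between 2 genes of the same library do not depend on how libraries are scaled to one another, and 8 ratios of a factor to a partner, relative or antagonist were compared, 7 of which are given here. For 2 of the 7 the groups did not overlap. Lmo2 had 4.97, 4.62 and 4.65 times the CPM of Ldb1 in CDKO pools, against 3.63, 3.81 and 3.88 times in control pools (log2 difference 0.33). Ldb1 itself fell, to 199, 214 and 211 CPM in CDKO pools, against 278, 276 and 272 CPM in control pools. Hlf had 234, 197 and 173 times the CPM of Nfil3 in CDKO pools, against 115, 131 and 97.7 times in control pools (log2 difference 0.81), since both genes were lower in CDKO pools but Nfil3 by more. Both had p = 0.1 in an exact two-sided permutation test, the smallest that 3 against 3 libraries allow, and 0.267 when adjusted over the 8 ratios. For Erg to Fli1 (log2 difference -0.18), Mecom to Prdm16 (0.37), Tal1 to Lyl1 (0.10), Runx1 to Cbfb (0.10) and Gata2 to Gata1 (-0.11) the groups overlapped, and the exact permutation p ran from 0.2 to 0.4. Each of these 5 moved by over 1.5 times when 1 library was left out. Erg to Fli1 was -0.071 without control replicate 1, Mecom to Prdm16 was 0.21 without CDKO replicate 3, and Tal1 to Lyl1 was 0.054 without CDKO replicate 2. Runx1 to Cbfb was 0.044 without CDKO replicate 2 and 0.051 without control replicate 3, and Gata2 to Gata1 was -0.17 without CDKO replicate 1, -0.039 without CDKO replicate 2 and -0.066 without control replicate 3.

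**Figure D4:**
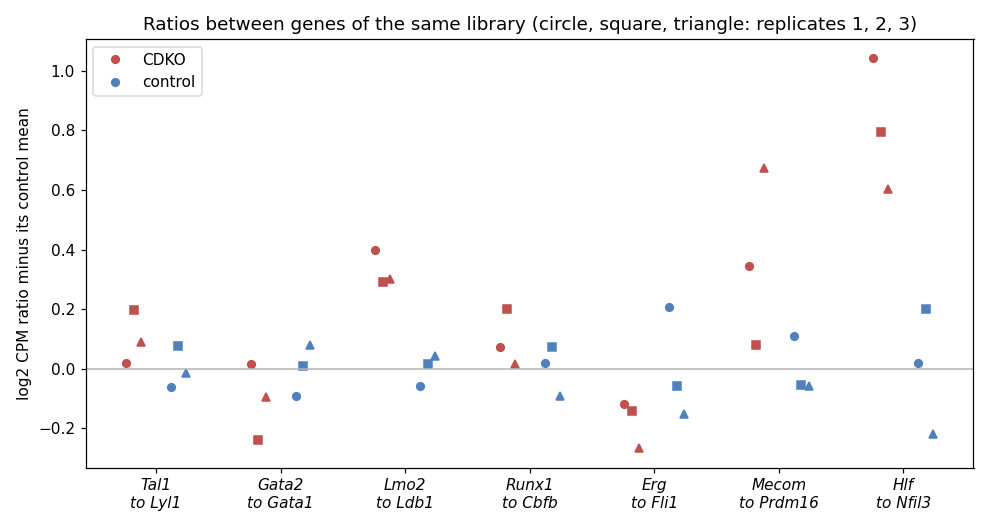
log2 ratio of CPM between 2 genes in every library, set to 0 at the mean of the control pools, CDKO pools in red and control pools in blue. The Lmo2 to Ldb1 and Hlf to Nfil3 ratios are higher in all 3 CDKO pools, and the other 5 overlap.

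Of 29 partners and cofactors of the factors 8 rose and 10 fell, with a median log2 difference of -0.04. These are 62.1% of the list, beside 66.2% of all tested genes. Lyl1, a relative that can take the place of TAL1, fell to 33.4, 30.6 and 32.3 CPM in CDKO pools, against 49.9, 44.7 and 46.2 CPM in control pools (limma adjusted p = 8.48e-05). Cbfa2t3, a corepressor of the complex, fell to 230 ± 7.33 CPM in CDKO pools, against 329 ± 12.8 CPM in control pools (limma adjusted p = 2.67e-06), and Ldb1 fell as given above (limma adjusted p = 9.55e-06). The E protein genes differed in direction, with Tcf12 and Tcf4 lower and Tcf3 higher (log2 differences -0.38, -0.22 and 0.37), and so did the LDB1-binding Ssbp3 and Ssbp4 (-0.39 and 0.52). Kmt2a, a histone methyltransferase known to act upstream of HOX genes and Mecom, fell to 209 ± 13.2 CPM in CDKO pools, against 316 ± 7.14 CPM in control pools (limma adjusted p = 2.25e-06).

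Of 30 family relatives of the factors 25 were tested, 8 rose and 9 fell (median log2 difference -0.05), which is 68.0% of those tested, beside 66.2% of all tested genes. Beside Runx2, Runx3 and Tef, the lowest p belonged to Gata3, a lymphoid relative of Gata2, at 37.5 ± 0.924 CPM in CDKO pools and 57.1 ± 0.693 CPM in control pools (limma adjusted p = 1.06e-05). Gata1, the relative that takes over from GATA2 in erythroid and megakaryocyte cells, stood at 31.5 ± 2.13 CPM in CDKO pools and 30.3 ± 1.97 CPM in control pools and was not called (limma adjusted p = 0.589). Of 21 HOX genes of the A and B clusters 13 were tested, 1 rose and 3 fell, which is 30.8% of those tested, beside 66.2% of all tested genes. The number that rose was 2 with the replicate block, the GC and length correction, TMM, a pseudocount of 5, edgeR or DESeq2, and 3 with quantile normalization or no filter. Hoxa9, the most abundant of them and a partner of MEIS1, stood at 117 ± 9.58 CPM in CDKO pools and 134 ± 9.16 CPM in control pools (limma adjusted p = 0.0258), a call that was lost without control replicate 3 or CDKO replicate 2, or with no filter (limma adjusted p = 0.123, 0.114 and 0.0612). Hoxa3 fell to 5.23 ± 0.951 CPM in CDKO pools, against 12.2 ± 0.665 CPM in control pools (limma adjusted p = 5.34e-05), and Hoxb4, known for expanding HSC when forced on, fell to 3.99 ± 0.595 CPM in CDKO pools, against 6.73 ± 0.596 CPM in control pools (limma adjusted p = 0.00267). Hoxb2 rose to 16.7 ± 1.89 CPM in CDKO pools, against 12.4 ± 1.01 CPM in control pools (limma adjusted p = 0.0149), and this call was lost without control replicate 2 or CDKO replicate 2 (limma adjusted p = 0.0558 and 0.0590).

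Of 23 tested genes described as targets of a factor, 7 rose and 10 fell (median log2 difference 0.02), or 73.9% of them, beside 66.2% of all tested genes. Csf1r, the macrophage growth factor receptor and a known RUNX1 target, rose to 21.5 ± 1.68 CPM in CDKO pools, against 3.22 ± 0.626 CPM in control pools (limma adjusted p = 2.86e-07). C1qc, a complement gene of macrophages that is not on the target list, rose too, to 3.69 ± 0.322 CPM in CDKO pools, against 1.22 ± 0.193 CPM in control pools. Of 8 monocyte and macrophage markers 4 rose, Csf1r and C1qc among them, and 4 fell. Pf4, a platelet chemokine gene bound by FLI1 and RUNX1, rose to 82.0 ± 7.45 CPM in CDKO pools, against 27.8 ± 1.73 CPM in control pools (limma adjusted p = 1.35e-07). Tek and Esam, surface genes shared by HSC and endothelium, rose too. Trib2, a pseudokinase gene described as a MEIS1 target, fell to 2.77 ± 0.755 CPM in CDKO pools, against 17.2 ± 1.01 CPM in control pools (limma adjusted p = 6.37e-07), and Cebpa, a granulocyte factor that RUNX1 is known to control, fell to 0.892 ± 0.146 CPM in CDKO pools, against 6.75 ± 1.57 CPM in control pools (limma adjusted p = 2.33e-06). Of 20 other regulators of HSC 2 rose and 12 fell, with a median log2 difference of -0.19. These are 70.0% of the list, beside 66.2% of all tested genes, and the counts were 4 and 7 after the GC and length correction, while 4 rose without control replicate 2. Ikzf2 fell to 57.6 ± 2.22 CPM in CDKO pools, against 90.3 ± 2.95 CPM in control pools, and Klf6 fell to 68.7 ± 6.04 CPM in CDKO pools, against 101 ± 2.63 CPM in control pools (limma adjusted p = 3.27e-06 and 2.60e-05). Stat5b, which carries cytokine signals, fell to 281 CPM in CDKO pools, against 366 CPM in control pools (log2 difference -0.38, limma adjusted p = 2.18e-05). Egr1, an immediate early gene known to keep HSC in their niche, rose to 54.3 ± 4.77 CPM in CDKO pools, against 33.7 ± 3.33 CPM in control pools (limma adjusted p = 5.95e-05).

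**Figure D5:**
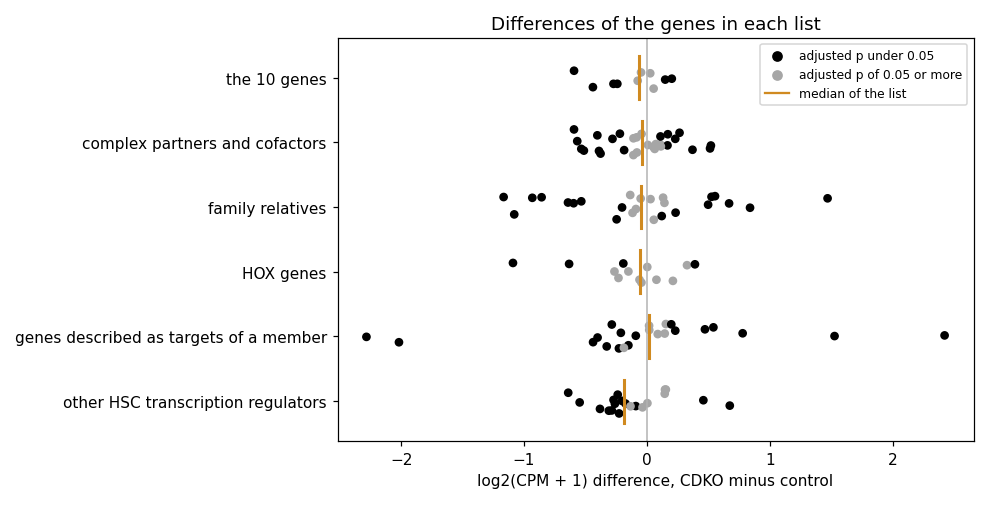
Difference in log2(CPM + 1) between CDKO and control pools for the 10 factors and for each tested gene of 5 lists, with genes that passed in black and the median of each list in orange. The 10 factors lie between -0.59 and 0.20, and single targets such as Trib2 and Csf1r lie beyond 2 in either direction.

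Markers of mature blood cells moved with the groups. The marker counts stand beside 66.2% of all tested genes that passed, 31.1% higher and 35.2% lower. All 10 neutrophil markers fell, with a summed level of 16.7 to 83.3 CPM in CDKO pools and 782 to 1028 CPM in control pools. The 5 tested basophil and mast cell markers fell, summing to 3.62 to 7.86 CPM in CDKO pools and 199.9 to 259 CPM in control pools, as did the 6 tested erythroid markers, summing to 14.5 to 17.5 CPM in CDKO pools and 189 to 214 CPM in control pools. Cma1, Tpsb2, Hbb-bt and Hba-a1 of these lists had no read in any library. Of 6 tested megakaryocyte markers 5 rose, or 83.3%. All 7 megakaryocyte markers searched summed to 547 to 557 CPM in CDKO pools, against 401 to 426 CPM in control pools. Endothelial cells are known to express Erg, Fli1, Tal1 and Mecom as well. Of 7 tested endothelial markers 3 rose and 2 fell, or 71.4%, near the share of all tested genes. The endothelial sum was 55.9 to 62.0 CPM in CDKO pools and 40.2 to 42.4 CPM in control pools. Cdh5, their defining cadherin, had no read in control pools and averaged 0.0239 CPM in CDKO pools, less than 3 counts come to. Stromal markers summed to 60.7 to 63.9 CPM in CDKO pools and 70.9 to 81.8 CPM in control pools. T and NK cell markers summed to 80.1 to 84.6 CPM in CDKO pools and 57.2 to 59.01 CPM in control pools, and B cell markers to 57.7 to 61.4 CPM in CDKO pools and 46.6 to 55.96 CPM in control pools. Of 8 monocyte and macrophage markers, Csf1r, C1qa, C1qb and C1qc rose while Ly6c2, Emr1, Cd68 and Mrc1 fell, and the sums were 54.7 to 57.7 CPM in CDKO pools and 48.7 to 57.7 CPM in control pools. Of 11 tested HSC surface and reporter genes 5 rose and 5 fell, or 90.9%, beside 66.2% of all tested genes. These 11 genes summed to 4193 to 4399 CPM in CDKO pools and 4500.5 to 4736 CPM in control pools. The part of these cells in the values of the 10 factors was not tested.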

How the data were processed

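RNA of 6 pools of sorted mouse HSC was amplified with SMARTer chemistry and made into Nextera XT libraries, per the labels' protocols. TopHat2, HTSeq, DESeq2 and build mm10 are named, without versions, per the submitters' processing notes; annotation and strandedness are not given in the sources used here. The deposited values are CPM per gene and library, and dividing them by the value of 1 read gave whole reads for 100.0% of values above 0, to within 0.01. The authors' baseMean column, a signal, was not used. The deposited log2 fold changes run control over CDKO. The deposited p-value columns, adjusted p included, are the authors' DESeq2 results, and the deposited stat column is a score that was not used. Rows with a date in place of a symbol (12) or a shared symbol (2) were left out.

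Genes with a mean of at least 10 reads over the 6 libraries were tested in limma 3.58.1 (R 4.3.3) with a trended eBayes step, on values of log2(CPM + 1), CDKO minus control. edgeR 4.0.16 and DESeq2 1.42.0 were run on the recovered reads as alternatives, and called 4288 genes higher and 4499 lower, and 4673 higher and 4833 lower, in that order; limma called 4264 and 4832. The fit was also run on simulated data in which far fewer genes changed than were called here, so that run does not test these calls. Members and lists were chosen with earlier results of these data known. Named were the 10 factors, the NR4A genes, the genes of the ratios (1 of the 8 is not reported here), up to 4 genes per list with the smallest p, and the 3 genes most like the factors with the highest and lowest difference; other list genes were named after their values were seen. Of the 82 marker entries, 2 were found under an older symbol, and Cd48 is not analysed here. Coordinates and exon lengths are from GENCODE M21 (GRCm38). Pools are separate samples per the labels. The limma p-values set the difference between groups against the spread between pools, which the eBayes step moderates over all tested genes. Spread between single mice was not measured, since a library pooled 3 to 5 of them.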

Additional observations from a re-analysis of the deposited data

How the results depend on the processing

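Tal1, Hlf, Mecom, Prdm16 and Fli1 kept direction and call with each library left out and under each scaling, filter, pseudocount and tool tried (TMM, quantile, GC and length, no filter, means of 50 reads or 10 CPM, pseudocounts of 0.5 and 5, edgeR, DESeq2). A minimum change of 1.5-fold left 0 factors higher and 1 lower (Prdm16), 1645 and 2354 of all tested genes, 0 and 1 partners, 3 relatives higher, 0 HOX genes higher, 3 and 2 targets, and 1 and 1 other regulators. Leaving out 1 library gave 1 to 2 factors higher and 4 lower, with Erg from -0.024 to 0.071. Meis1 was -0.0097 with quantile normalization, and Gata2 was 0.10 after the GC and length correction with or without the block. The labels do not say whether equal replicate numbers pair the libraries. The correlation of deviations was 0.0518, 0.0483 and -0.0120 for equal numbers and -0.0650 to 0.0263 for unequal numbers. With 3 libraries per group these values cannot decide whether the libraries were paired. With replicate number as a block, 2 factors rose and 4 fell, and Meis1 was called only with block and GC correction together (limma adjusted p = 0.0417). HOX genes higher numbered 2 with the block, the GC and length correction, both, TMM, a pseudocount of 5, edgeR or DESeq2, 3 with no filter, quantile normalization or a threshold of 0.1, and 0 to 2 leaving out 1 library; 1 was lower at a mean of 10 CPM. Partners higher ran from 5 to 8 and other regulators higher from 2 to 4 leaving out 1 library, and the GC and length correction gave 4 other regulators higher, with or without the block, and 7 lower. The Lmo2 to Ldb1 log2 ratio difference was 0.21 after that correction, and that of Hlf to Nfil3 was 0.58 on log2(CPM + 1). The cause of these shifts was not tested. Each of the 10 factors had at least 1087 reads in every library, and the spread between pools ranged from below the counting error (Meis1 in control pools) to several times it (Prdm16 in CDKO pools).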

Other observations

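Genes whose pattern over the 6 libraries was most like that of Fli1, the factor with the highest difference, were Cul3, Tmed5 and Map2k4, at Euclidean distances of 0.0648, 0.0664 and 0.0677 between centred log2(CPM + 1) profiles. Cul3, the scaffold of a family of ubiquitin ligases, averaged 229 ± 13.1 CPM in CDKO pools and 197.9 ± 10.8 CPM in control pools (SD, n = 3 each), and Map2k4, a kinase of the JNK pathway, 93.4 ± 5.37 CPM in CDKO pools and 81.7 ± 3.79 CPM in control pools. For Prdm16, the factor with the lowest difference, the nearest were AW554918, Polr3f and Lama4, at distances of 0.175, 0.178 and 0.182. Polr3f, a subunit of RNA polymerase III, averaged 21.5 ± 3.42 CPM in CDKO pools and 34.6 ± 2.19 CPM in control pools, and Lama4, a laminin chain, 3.22 ± 0.774 CPM in CDKO pools and 5.91 ± 0.442 CPM in control pools.

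The spread between pools differed among the 10 factors. In control pools Meis1 had a coefficient of variation of 0.240%, below the 0.572% that read counting alone gives, while Fli1 had 6.96% against 0.975% from counting. In CDKO pools Lmo2 had 0.603%, against 0.512% from counting, and Erg had 6.44%, against 2.37%.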
